A study of Pyronema omphalodes CBS 100304 with 6 samples.

Results

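The core and variant histone genes of *P. confluens* were followed in vegetative mycelium at 2 time points in constant darkness. The members are the gene models whose predicted product begins with the name of histone H1, H2A, H2B, H3 or H4, without enzymes that modify histones and without histone chaperones. This rule found 9 of the 13369 gene models, and 45 models had the word histone anywhere in the product. The 9 genes comprise 1 each for H1, H2A, H2B, H3, the variant H2A.Z and the centromeric H3 (cenH3), and 3 for H4. The groups DD24 and DD36, of 3 libraries each (a, b and c), had been in darkness for 24 hr and 36 hr when they were harvested, and stand for subjective evening and subjective morning. Within a group, values below follow the order a, b, c. All cultures were of the strain CBS 100304 of this filamentous ascomycete, for which the labels give the name *Pyronema omphalodes*, and were shaken at 25° and 100 rpm after at least 24 hr of constant light, with staggered transfers so that both groups had grown equally long. The labels name the medium as WPC and the methods of the study as minimal medium. According to these methods the mycelium had stopped growing at harvest. The question addressed here is whether histone transcripts differed between the subjective morning and the subjective evening, and how the members relate to each other in level.

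Histones are the small basic proteins that package DNA. H2A, H2B, H3 and H4 form the core of the nucleosome, around which DNA is wound, and H1 binds the DNA between nucleosomes. H2A.Z replaces H2A at many promoters, and cenH3 replaces H3 in the nucleosomes of the centromere, where the kinetochore assembles. In dividing cells, the genes for the core histones are known to be transcribed mainly while DNA is replicated. In yeasts and many filamentous fungi the core histone genes lie in divergent pairs with a common intergenic region.

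The arrangement of the members on the scaffolds of the reference genome v01_2 is given first, as the pairs are used for comparisons of level. The H3 gene *PCON_13209* (scaffold 808, 292429 to 293386, minus strand) and the H4.1 gene *PCON_13210* (scaffold 808, 294359 to 295049, plus strand) are neighbors. They are transcribed away from each other, with 972 bases between the models. The same arrangement was found for *PCON_05921* (H2A, scaffold 225, 223950 to 225212, minus strand) and *PCON_05922* (H2B, scaffold 225, 226019 to 226830, plus strand), with 806 bases between them. The H1 gene *PCON_05919* is on the same scaffold (214463 to 215905, minus strand), 8044 bases before the H2A model. Between the H1 and H2A models lies *PCON_05920*, similar to flap endonuclease 1, an enzyme that trims DNA fragments in replication. The remaining members are not beside another histone gene. *PCON_05222*, the second gene for H4.1, is on scaffold 200 (30460 to 31431, plus strand), and *PCON_07103*, for H4.2, on scaffold 300 (185020 to 186530, minus strand). *PCON_13456*, for H2A.Z, is on scaffold 845 (403291 to 404603, minus strand), with the model for cofilin, an actin-binding protein, 244 bases upstream. *PCON_10853*, for cenH3, is on scaffold 558 (20753 to 24271, minus strand).

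All 9 models contain introns, between 2 and 6 each. The H4.1 genes have the same division of the coding sequence, with 10, 138 and 164 coding bases in exons 1, 2 and 3. The second intron is 58 bases long in both, whereas the first intron is 278 bases long in *PCON_05222* and 56 in *PCON_13210*. The H4.2 model *PCON_07103* is divided differently, into 313, 188 and 84 coding bases. Its coding length is 585 bases against 312 in both H4.1 genes. H2A (53, 215 and 137 coding bases) and H2A.Z (102, 70 and 248) also differ in the positions of their introns. Of the members, only cenH3 overlaps other models. Its model has 4 exons before the first coding base and overlaps 853 bases of *PCON_10854* and 21 bases of *PCON_10855*, both on the opposite strand. *PCON_10854* was counted 0 times in each of the 6 libraries, and *PCON_10855* at most 2 times. Whether strand was used in counting is not given in the sources used here, so that reads from these models and from cenH3 cannot be told apart. Other models within 2000 bases of a member are *PCON_05221* and *PCON_05223* beside the unpaired H4.1 gene, similar to NADH-cytochrome b5 reductase and DNA polymerase mu, *PCON_07104* and *PCON_07105* beside H4.2, *PCON_13208* beside H3 and *PCON_10856* beside cenH3, the last 4 without a known function.

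**Figure D1:**
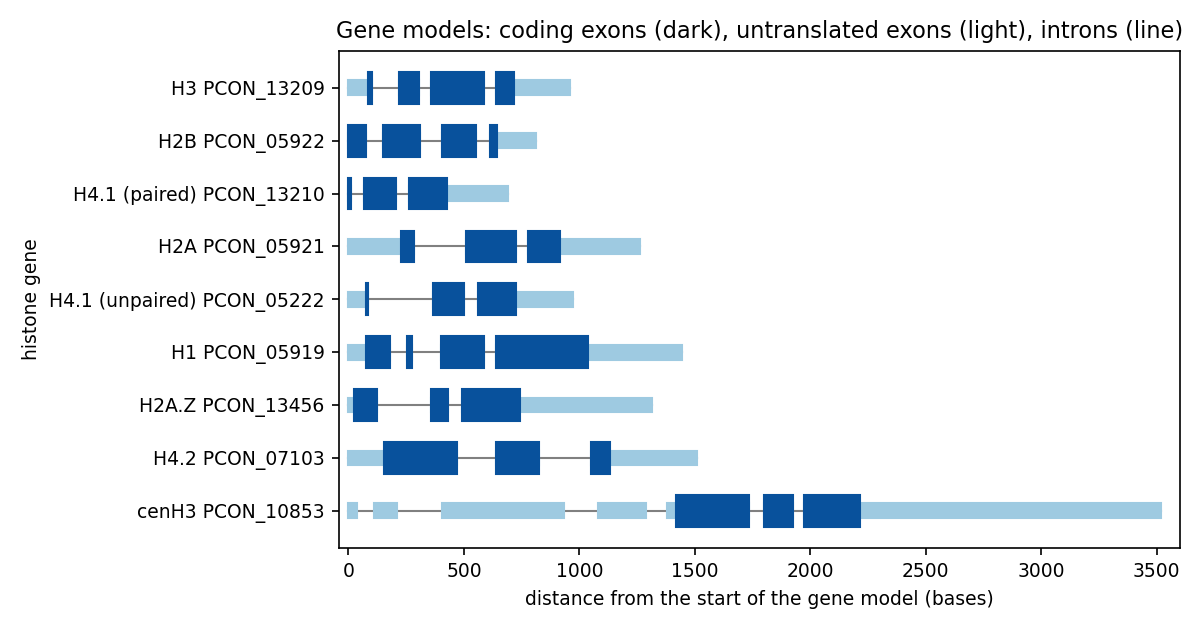
Gene models of the 9 histone genes, drawn from the start of each model, with distance in bases on the x axis; dark boxes are coding exons, light boxes are untranslated parts of exons and lines are introns. Both H4.1 genes share coding exons of 10, 138 and 164 bases, and the models for H2B and for the H4.1 gene beside H3 start at the first coding base.

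Read counts summed to between 806459 and 1132608 per library. The paper lists far more mapped reads for each library, and why the deposited counts are fewer is not given in the sources used here. A gene model similar to an RNA-dependent RNA polymerase and 3 models similar to phage proteins together took 35.2% to 44.4% of the counts in 5 libraries and 56.4% in DD24 replicate a, which stands apart. Levels are given as CPM, counts per 1000000 counts, where the library size is the sum over the 5466 genes kept by the filter on low counts multiplied by the TMM factor, which was 0.728 in DD24 replicate a and 1.02 to 1.13 in the others. All 9 members passed the filter. A count of 0 would allow up to 3 counts, or 2.55 to 4.73 CPM, and no member was near this limit. Defining meiotic genes, used as markers of sexual tissue, were at or near 0, with 0 to 1 counts per library for the *SPO11*-like *PCON_04896* and 0 to 2 for the *DLH1*-like *PCON_03294*. Of 46 genes matched by words for mating and meiosis, 28 passed the filter. At an adjusted p under 0.05 by edgeR 0 of these passed, against 0% of all genes tested. The median log2 fold change of the 28 was -0.11 and 18 were below 0 (64.3%), against 50.3% of all genes. The smallest p in each direction was that of *PCON_01122*, similar to a negative regulator of sexual conjugation and meiosis (0.69, edgeR adjusted p = 0.425), and of *PCON_14243*, similar to a meiotically up-regulated gene of fission yeast (-0.78, edgeR adjusted p = 0.708). The summed level of all 46 genes was 2655 to 3180.3 CPM in DD24 and 2487 to 2961 CPM in DD36. The mating-type gene *PCON_08389* (22 to 43 counts) and the *NDT80*-like gene *PCON_08807* (72 to 146 counts) of this list were expressed.

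Together, the 9 histone genes held 2452, 4367 and 3228 counts in DD24 and 2915, 4330 and 4195 in DD36. In DD24 this is 0.278% (95% Clopper-Pearson interval 0.267% to 0.290%), 0.386% (0.374% to 0.397%) and 0.400% (0.387% to 0.414%) of all counts. In DD36 it is 0.341% (0.328% to 0.353%), 0.409% (0.397% to 0.422%) and 0.426% (0.413% to 0.439%). Intervals cover counting error only. The lowest share was that of DD24 replicate a, where the 4 models named above took most of the counts. When these models are left out of the total, the shares were 0.638%, 0.624% and 0.660% in DD24 and 0.613%, 0.632% and 0.657% in DD36, and the groups overlapped. On the CPM scale the summed level averaged 3864 ± 47.8 for DD24 and 3636 ± 241 for DD36 (SD, n = 3), lower in DD36 in 3 of 3 pairs of libraries with the same letter. The share without the 4 models was lower in DD36 in 2 of 3 pairs, and the share of all counts in 0 of 3. The ratio of the DD36 mean to the DD24 mean was 0.941 for CPM, 0.990 for the share without the 4 models, and above 1 for the share of all counts (0.355% ± 0.0666 in DD24 and 0.392% ± 0.0452 in DD36, SD, n = 3). Its direction thus depended on how the libraries were scaled.

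The members fell into 6 abundant and 3 scarce genes. Levels of different genes were compared as CPM per kb of the mRNA model, averaged over the 6 libraries. H3 (*PCON_13209*) was the most abundant at 1467 ± 183 CPM per kb (SD, n = 6) and ranked at position 18 among the 5466 genes tested. H2B (*PCON_05922*) followed at 1166 ± 80.0, and the H4.1 gene beside H3 (*PCON_13210*) at 930.1 ± 161 CPM per kb (SD, n = 6). H2A (*PCON_05921*) stood at 622 ± 63.2 and the unpaired H4.1 gene (*PCON_05222*) at 571 ± 123 CPM per kb (SD, n = 6). H1 (*PCON_05919*) was the lowest of the abundant members at 327 ± 32.8 CPM per kb and ranked at position 206. The scarce members were H2A.Z (*PCON_13456*) at 31.9 ± 5.92, H4.2 (*PCON_07103*) at 19.1 ± 4.86 and cenH3 (*PCON_10853*) at 9.30 ± 1.19 CPM per kb (SD, n = 6). Their positions were 2054, 3142 and 4679. The lowest value of H1 in any library (266 CPM per kb) was above the highest value of H2A.Z (40.4).

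Neighbors in this order did not all differ beyond their spread. H3 was above H2B in 6 of 6 libraries, although their ranges overlapped. H2B was above the H4.1 gene beside H3 in 5 of 6 libraries, and H2A was above the unpaired H4.1 gene in 5 of 6. In both cases the exception was DD24 replicate a. H2A.Z was above H4.2 in 6 of 6 libraries with overlapping ranges, and for the other 4 neighboring pairs the ranges did not overlap. The models for H2B and for the H4.1 gene beside H3 have no 5′ untranslated region, and reads from such a region would not be counted for them. Per kb of coding sequence, this H4.1 gene (1720.0 ± 297, SD, n = 6) was above H2B (1632 ± 112), and cenH3 (39.3 ± 5.03) above H4.2 (36.5 ± 9.28). The order between these genes therefore depended on the length used, and the other 5 had the same position by both lengths.

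**Figure D2:**
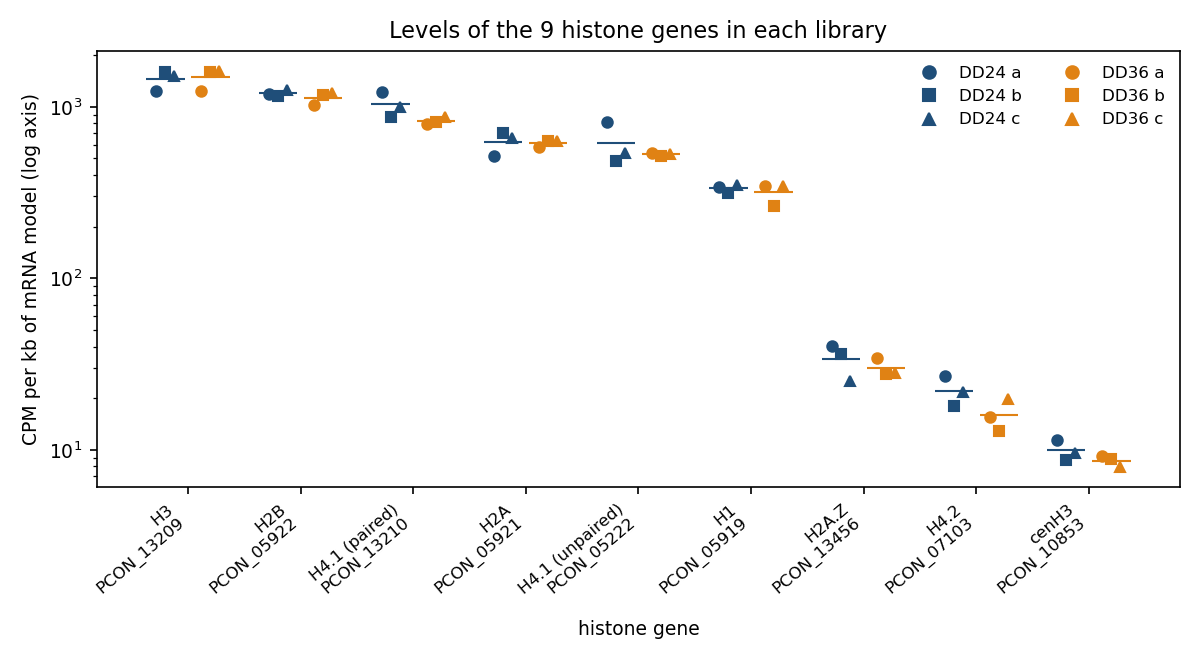
Level of each histone gene (x axis, ordered by mean) in CPM per kb of mRNA model (y axis, log axis) in the 6 libraries; symbols are replicates a, b and c, and short lines are the means of DD24 and DD36. The 6 abundant members lie between 266 and 1627 CPM per kb, the 3 scarce members between 7.93 and 40.4.

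The ratio of members to each other was compared between libraries, as this does not depend on the scaling of the libraries. With all 6 libraries, H2A to H3 was the steadiest of 15 pairs among the abundant members. Per kb of mRNA, its ratio was 0.419, 0.439 and 0.438 in DD24 and 0.473, 0.396 and 0.389 in DD36, with an SD of the log2 ratio of 0.11. This ranking rested on DD24 replicate a, without which the pair stood at position 5 (SD 0.12) and the paired H4.1 gene to H2B was the steadiest (SD 0.075). Second with all libraries came the H4.1 genes, whose reads may be shared if their sequences are alike. The unpaired H4.1 gene stood to the paired one at 0.669, 0.556 and 0.541 in DD24 and at 0.676, 0.632 and 0.608 in DD36 (SD of the log2 ratio 0.13). DD24 replicates b and c were the lowest.

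The divergent H3 and H4.1 genes were among the less steady pairs. The ratio of the paired H4.1 gene to H3 per kb was 0.990, 0.547 and 0.663 in DD24 and 0.644, 0.513 and 0.534 in DD36, with an SD of the log2 ratio of 0.35. This H4.1 gene had 43.6% (95% Clopper-Pearson interval 40.6% to 46.7%) of the counts of the pair in the library DD24 a and 28.6% (26.6% to 30.7%) in DD36 b. The ratio of the paired H4.1 gene to H3 was lower in DD36 in 3 of 3 pairs of libraries with the same letter. The groups overlapped for this ratio, and the pattern was chosen after its values were seen. DD24 replicate a was the highest by far, and the ratio spanned 1.93-fold with it and 1.29-fold without it, where H2A to H3 spanned 1.22-fold in both cases. The SD of the log2 ratio without it was 0.17.

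For the other divergent pair, H2A and H2B, the ratio of H2B to H2A per kb was 2.29, 1.65 and 1.91 in DD24 and 1.74, 1.85 and 1.90 in DD36 (SD of the log2 ratio 0.16, and 0.090 without DD24 replicate a), again with DD24 replicate a the highest. Per kb of coding sequence the mean over 6 libraries was 1.09 ± 0.127 (SD, n = 6), so that the distance between H2B and H2A depended on the length used. For the sum of the 3 H4 genes to H3, the ratio per kb of mRNA was 1.67, 0.862 and 1.04 in DD24 and 1.09, 0.845 and 0.871 in DD36. Without DD24 replicate a it was between 0.845 and 1.09. H4.2 gave a small part of H4. Its share of the counts of the 3 H4 genes was between 1.77% and 2.57%, and the intervals of the 6 libraries overlapped.

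**Figure D3:**
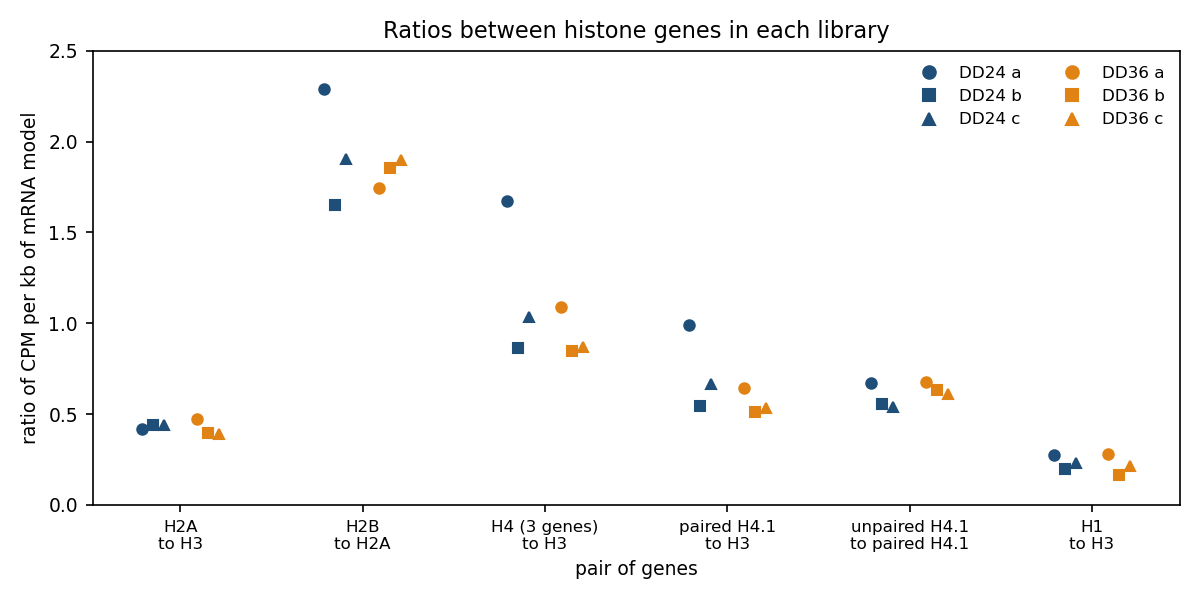
Ratios of CPM per kb of mRNA model (y axis, from 0) between histone genes (x axis) in the 6 libraries; blue symbols are DD24, orange symbols DD36, and shapes are replicates a, b and c. H2A to H3 stays between 0.389 and 0.473, whereas the ratios of H4 to H3 reach 1.67 in DD24 replicate a.

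Between the time points, no histone gene passed an adjusted p under 0.05 by edgeR's quasi-likelihood test, and none of the 5466 genes tested did (0%). With the replicate letter as a block, 0 members and 71 of all genes (1.3%) passed. DESeq2 called 27 genes in all and 0 of the 6 members to which it gave an adjusted p, and limma-voom 0 members and 0 genes. The fitted log2 fold change of DD36 vs. DD24 was below 0 for 8 of the 9 members, against 50.3% of all genes, and their median was -0.18 against -0.00 for all genes. This count moved with the scaling. By total counts, 2 of 9 members and 21.2% of all genes were below 0, and the median of all genes was 0.23. By total counts without the 4 abundant models 6 of 9 members and 39% of all genes were below 0, with a median of all genes of 0.07. Without DD24 replicate a, 8 of 9 were below 0 with a median of -0.09. At an unadjusted p under 0.05 by edgeR 0 members passed, against 6.99% of all genes. The members' values are described below in the order H4, H3, H2A and H2B, H1 and variants.

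The change with the smallest p was that of the H4.1 gene beside H3. *PCON_13210* was at 707, 503 and 576 CPM in DD24 and at 459, 473 and 501 CPM in DD36. All DD36 values were below all DD24 values, by a margin of 503 against 501 CPM, and DD24 replicate a was the highest. Such a lack of overlap was found for 1 of the 9 members and for 11.9% of all genes. The means were 596 ± 103 CPM (DD24) and 478 ± 21.7 CPM (DD36, SD, n = 3), with a log2 fold change of -0.31 (standard error 0.17, 95% confidence interval -0.68 to 0.05, edgeR adjusted p = 0.748). With the replicate letter as a block it was -0.30 (standard error 0.14, edgeR adjusted p = 0.416). The unadjusted p of 0.0455 in this edgeR fit was the only one of the 9 members under 0.05, against 11.6% of all genes. By edgeR with the block and total counts without the 4 abundant models, the log2 fold change was -0.23 and the unadjusted p 0.0864. Without the block it was -0.24 by this scaling, -0.06 by all counts, and -0.18 with DD24 replicate a left out. The 4 models took 56.4% of the counts of that library, and their part in this result was not tested.

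*PCON_05222*, the unpaired H4.1 gene, was at 521, 309 and 343 CPM in DD24 and at 342, 330 and 336 CPM in DD36. DD24 replicate a was again the highest, and the other 5 libraries lay close together, with the DD36 values inside the DD24 range. Its log2 fold change was -0.21 (standard error 0.19, edgeR adjusted p = 0.910), against 0.041 with DD24 replicate a left out. For H4.2, *PCON_07103* was counted 19, 23 and 20 times in DD24 and 15, 17 and 24 times in DD36. On the CPM scale this is 29.9, 20.1 and 24.2 in DD24 and 17.4, 14.5 and 22.0 in DD36, with overlapping groups. The log2 fold change of -0.43 was the lowest among the members, with the widest interval (-1.06 to 0.20, edgeR adjusted p = 0.840). *PCON_13210* and *PCON_07103* were lower in DD36 in 3 of 3 pairs of libraries, 2 of 9 members against 16.1% of all genes.

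For H3, *PCON_13209* was at 914, 1178 and 1110.3 CPM in DD24 and at 911, 1181 and 1201 CPM in DD36. Both libraries of replicate a were the lowest, and the groups overlapped. H3 was the only member with a log2 fold change above 0, at 0.04 (95% confidence interval -0.35 to 0.43, standard error 0.18, edgeR adjusted p = 0.990). It was -0.064 with DD24 replicate a left out. H2A (*PCON_05921*) was at 510.4, 689.7 and 649 CPM in DD24 and at 574, 622 and 622 CPM in DD36, with DD24 replicate a the lowest. H2A had a log2 fold change of -0.03 (95% confidence interval -0.38 to 0.33, edgeR adjusted p = 0.993).

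Of the abundant members, H2B had the lowest coefficient of variation over the 6 libraries (6.86%). *PCON_05922* was at 699, 680.1 and 739 CPM in DD24 and at 599, 689 and 705 CPM in DD36. DD36 replicate a was the lowest and the groups overlapped, with a log2 fold change of -0.09 (95% confidence interval -0.43 to 0.25, edgeR adjusted p = 0.969). H1 (*PCON_05919*) was at 406, 375 and 418 CPM in DD24 and at 412, 317 and 413 CPM in DD36. DD36 replicate b was the lowest, followed by DD24 replicate b, so that replicate b was the lowest at both time points. Its log2 fold change was -0.07 (95% confidence interval -0.42 to 0.28, edgeR adjusted p = 0.981).

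The variants had fewer counts. H2A.Z (*PCON_13456*) was counted 26, 42 and 21 times in DD24 and 30, 33 and 31 times in DD36. These are 41.0, 36.7 and 25.5 CPM in DD24 and 34.7, 28.1 and 28.5 CPM in DD36, with the DD36 values inside the DD24 range and a log2 fold change of -0.18 (95% confidence interval -0.71 to 0.36, edgeR adjusted p = 0.945). The centromeric H3 (*PCON_10853*) was counted 21, 29 and 23 times in DD24 and 23, 30 and 25 times in DD36. The CPM values were 33.1, 25.3 and 27.9 in DD24 and 26.6, 25.5 and 23.0 in DD36, and the groups overlapped. Its log2 fold change was -0.18 (95% confidence interval -0.71 to 0.35, edgeR adjusted p = 0.943).

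No member passed in the fit with the replicate letter as a block either, in which 1.3% of all genes did. Leaving out DD24 replicate a gave log2 fold changes of -0.15 for H2A, -0.10 for H2B, -0.06 for H1, -0.30 for H4.2, -0.07 for H2A.Z and -0.09 for cenH3. Over the members the intervals of the fit without the block reached from -1.06 to 0.43 on the log2 scale. For the 6 abundant members they reached from -0.68 to 0.43. As RNA of whole cultures was sequenced, a lower level per cell and fewer cells that express a gene cannot be told apart. The p-values measure the spread between cultures described as independent biological replicates.

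**Figure D4:**
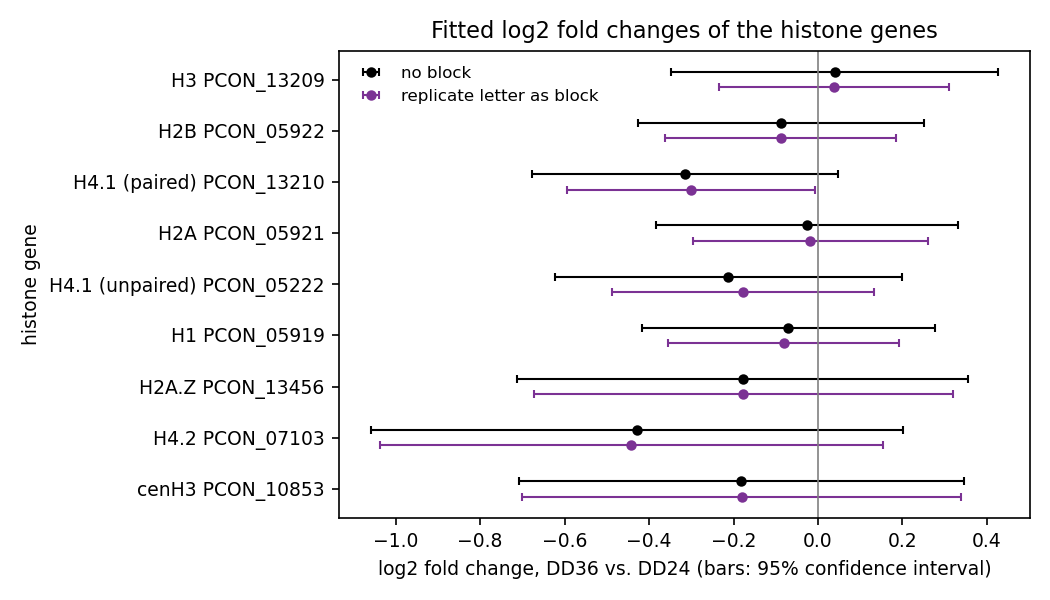
Fitted log2 fold changes of DD36 vs. DD24 (x axis) of the 9 histone genes (y axis), with 95% confidence intervals as bars; black is the fit without the block and purple the fit with the replicate letter as a block. All intervals without the block include 0, and with the block only that of the H4.1 gene beside H3 (*PCON_13210*, -0.59 to -0.01) does not, before adjustment for multiple tests.

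Genes that act on histones or beside them in replication were compared through lists built from words in the product descriptions. Of 10 genes for histone chaperones, which escort histones to and from DNA, 8 passed the filter. None of them was higher or lower at an unadjusted p under 0.05 by edgeR, against 6.99% of all genes, and their median log2 fold change was -0.06. *PCON_14305*, for the chaperone Asf1 that hands H3 and H4 to assembly factors, was counted 33, 50 and 50 times in DD24 and 59, 64 and 63 times in DD36. On the CPM scale its groups overlapped, with a log2 fold change of 0.21 (standard error 0.20, edgeR adjusted p = 0.913). *PCON_13778*, for the subunit Pob3 of FACT, which loosens nucleosomes ahead of polymerases, had the smallest p on the lower side at -0.40 (standard error 0.24, edgeR adjusted p = 0.779). It was counted 85, 76 and 65 times in DD24 and 60, 76 and 79 times in DD36. DD24 replicate a was the highest, and the groups overlapped on the CPM scale. The summed level of the chaperones was 1162 to 1681 CPM in DD24 and 1172 to 1295 CPM in DD36.

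For histone acetylation 10 of 13 genes passed the filter, with a median log2 fold change of -0.09. At an unadjusted p under 0.05 by edgeR, 1 of the 10 was higher and 0 lower, where 130 of all 5466 genes were higher and 252 lower (6.99% together). This was *PCON_02958*, similar to the deacetylase Hst3, which in budding yeast removes an acetyl group placed on newly made H3. It was counted 7, 16 and 11 times in DD24 and 12, 28 and 28 times in DD36, with a fitted log2 fold change of 0.72 (standard error 0.33, edgeR adjusted p = 0.711). *PCON_04446*, similar to the deacetylase Rpd3, was at -0.26 (standard error 0.19). For histone methylation 12 of 20 genes passed the filter, with a median of -0.04, and at an unadjusted p under 0.05 by edgeR 2 of the 12 were higher and 0 lower, beside the same 6.99% of all genes. *PCON_08920*, similar to lysine-specific demethylase 3B, was counted 15, 20 and 18 times in DD24 and 33, 37 and 35 times in DD36, without overlap. Its log2 fold change was 0.71 (standard error 0.25, edgeR adjusted p = 0.598). The other was *PCON_08262*, similar to lysine-specific histone demethylase 1A, at 0.76 (standard error 0.30, edgeR adjusted p = 0.669). This gene was named after its values were seen. On the lower side *PCON_03205*, similar to an H3 lysine-36 methyltransferase, was at -0.32 (standard error 0.18), also without overlap on the CPM scale. Of the 12 genes, 3 showed no overlap, against 11.9% of all genes.

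Of 45 genes of DNA replication 24 passed the filter, with a median log2 fold change of 0.03 and 9 of them below 0, where 50.3% of all genes were. *PCON_02786*, for subunit 5 of the clamp loader replication factor C, was the 1 gene of the 24 that was higher at an unadjusted p under 0.05 by edgeR, and 0 were lower, against 6.99% of all genes. It was counted 6, 9 and 8 times in DD24 and 14, 17 and 16 times in DD36, without overlap, with a fitted log2 fold change of 0.75 (standard error 0.35, edgeR adjusted p = 0.711). Of the 24 genes, 3 showed no overlap on the CPM scale, against 11.9% of all genes. The lowest p on the other side was that of *PCON_05920*, the flap endonuclease gene between H1 and H2A. It was counted 29, 32 and 29 times in DD24 and 25, 36 and 25 times in DD36 (log2 fold change -0.36, standard error 0.26). No gene of these 4 lists or of the list for mating and meiosis passed an adjusted p under 0.05 by edgeR, with or without the block. Of all genes tested, 1.3% passed with the block and 0% without it.

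**Figure D5:**
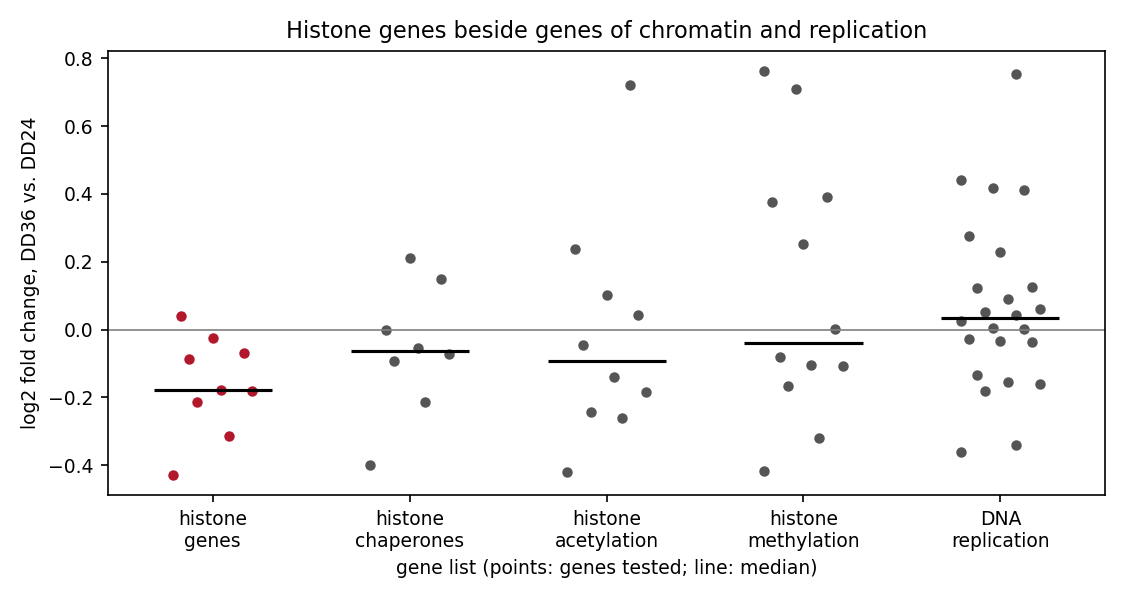
Log2 fold change of DD36 vs. DD24 (y axis) of each gene tested in the histone genes (red) and in 4 lists of related genes (grey); horizontal lines are medians. The median is -0.18 for the histone genes, -0.06 for chaperones, -0.09 for acetylation, -0.04 for methylation and 0.03 for DNA replication.

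Genes were ranked by Pearson's r between their log2 CPM and the mean log2 CPM of the 9 members over the 6 libraries. Those ranked were 4233 genes at 20 CPM or more. The mean of the members was highest in DD24 replicate a (7.88), where H2A was lowest (510 CPM), so it does not stand for each member. The first 5 were *PCON_02396*, for the autophagy protein Atg3, *PCON_12945*, of unknown function, *PCON_02789*, for a subunit of the vesicle coat complex AP-3, and the hypothetical genes *PCON_03806* and *PCON_03611*. Their r lay between 0.956 and 0.999, and their log2 fold changes between -0.95 and -0.40. With 6 points that share libraries and scaling factors, and the best of many genes chosen, these values are a description alone.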

How the data were processed

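RNA of 6 libraries (Illumina TruSeq) was analysed. After trimming and mapping to version v01_2 of the genome, the authors deposited raw read counts per predicted gene. The submitters' notes list CASAVA 1.8.2 and DESeq. Not given in the sources used here are the aligner, the counter, and how strand and multiply matching reads were handled. The lengths of gene models are those in the deposited table. Its LOX and DESeq ratios, base means and p-values were not used. The 6 count columns each matched a library by title, and 0 were left out.

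Counts were tested in R 4.3.3 with edgeR 4.0.16 (filterByExpr, TMM, robust quasi-likelihood fit on the time point, Benjamini-Hochberg adjustment over 5466 genes, threshold 0.05). DESeq2 1.42.0, limma 3.58.1 (voom), other filters and scalings, the replicate letter as a block, and the loss of each library or pair were alternatives. Between libraries of equal letter, the deviations from the group means had correlations of 0.220 (a), 0.264 (b) and 0.309 (c), each above the 0.1 set for treating letters as pairs. What such libraries share was not stated.

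Every member is named. Of each list, the gene with the smallest p in each direction is named. Models within 2000 bases of a member and the 5 genes most like the mean of the members are named too. CPM per kb divides CPM by the exonic length. The members and lists were chosen with earlier results of these data known. No sequences of these genes were used here.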

Additional observations from a re-analysis of the deposited data

How the results depend on the processing

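No histone gene passed an adjusted p under 0.05 under any of the 18 alternatives of filter, scaling, tool, block or libraries, in which at most 1 member had an unadjusted p under 0.05, except that DESeq2 gave no adjusted p to H4.2, H2A.Z and cenH3. The counts over all genes moved. Without the filter beyond 1 count in total edgeR called 2 genes higher and 51 lower, DESeq2 called 27 lower, and limma-voom 0. With the replicate block 5 were higher and 66 lower, and with the block and total-count scaling without the 4 abundant models 7 and 51. With the block and pair a left out they were 41 and 150, with pair b left out 0 and 2, and with pair c left out 27 and 120. Leaving out a library without the block gave 0 higher and 0 to 20 lower, the 20 without DD24 replicate c. The cause of these shifts was not tested.

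The median log2 fold change of the members lay between -0.24 and -0.09 when a library was left out, and was 0.062 by total-count scaling, which moved the median of all genes to 0.23. By that scaling the sign changed for 6 members, *PCON_05222* (0.062), *PCON_05919* (0.16), *PCON_05921* (0.18), *PCON_05922* (0.14), *PCON_10853* (0.051) and *PCON_13456* (0.061). Without the 4 models it changed for *PCON_05919* (0.0055) and *PCON_05921* (0.048, and 0.055 with the replicate block). With the block and pair a left out *PCON_05222* was at 0.028, with pair b left out *PCON_05921* at 0.050, and with pair c left out *PCON_05921* at 0.0049 and *PCON_13209* at -5.58e-06. With a library left out, values ranged from -0.36 to 0.041 for *PCON_05222*, -0.15 to 0.047 for *PCON_05919*, -0.15 to 0.063 for *PCON_05921* and -0.064 to 0.14 for *PCON_13209*. *PCON_13210* (-0.42 to -0.06) and *PCON_07103* (-0.62 to -0.19) were below 0 under all 18 alternatives. The alternatives reuse the same libraries, and the share of all genes with such a constant sign was not computed, so this is a description alone. Of the 9 members 3 kept their position in the order of levels by CPM without division by length, and 5 by CPM per kb of coding length. The latter and the spread of ratios without DD24 replicate a were chosen after seeing the data. Counts under 50 per library limit what can be seen for H4.2, H2A.Z and cenH3.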
